A study of Caenorhabditis elegans with 3 samples.

Results

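The EGF receptor, Ras and MAP kinase pathway of Caenorhabditis elegans was followed in adult hermaphrodites that carried embryos. Its 10 listed genes were looked for by symbol among the array features that name a single gene, and 8 of them were found, each with 1 feature and a value on every array. lin-45 and mek-2, the Raf and MEK kinase genes, had no single-gene feature under those symbols and were not analysed here. The 8 genes stand among 19300 genes and unnamed features, of which 15112 are single genes. Each of 3 two-colour DNA microarrays held RNA of TP10 adults with embryos, 1 preparation per array, in channel 2 and a wild-type mixed reference in channel 1. The labels do not spell out TP10, name no strain, genotype or age for it, and do not give the make-up of the mixed reference. It is not stated whether separate cultures were used, so p-values cover only the variation among 3 preparations, and part of it may be technical. Each array also has its own date in the labels, so preparation, array and day cannot be told apart.

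In this pathway the EGF-like ligand LIN-3 binds the receptor tyrosine kinase LET-23, which activates the GTPase LET-60 Ras through an adaptor and an exchange factor. Ras then acts through the kinases LIN-45 (Raf), MEK-2 and MPK-1 (ERK), which changes the activity of nuclear targets such as the ETS factor LIN-1 and the winged-helix factor LIN-31. It is best known for inducing the vulva in larvae. In the adult, MPK-1 is known for its part in the germ line, in the passage of germ cells through pachytene and in oocyte maturation, and LET-23 signalling through inositol trisphosphate is known for its part in ovulation.

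Values are log2 ratios of TP10 over the reference, centred on the median of each array, so "higher" and "lower" mean relative to the median gene or feature. No dye is named in the labels. The direction is therefore likely, because the sample descriptions put TP10 before the reference, but it is not settled, and every direction would turn if the table were inverted. A mean was tested against 0 in limma (Benjamini-Hochberg adjustment over all 19300, threshold 0.05). The unknown mix of the reference enters every ratio, and in RNA of whole worms fewer cells of a type and less RNA per cell cannot be told apart. The 6 oocyte and germ line markers (rme-2, puf-5, oma-1, oma-2, glh-1 and gld-1) were all higher, between 1.50 and 2.73, as were 3 of 4 eggshell markers. Of 5 neuronal markers 4 were lower, with a median of -1.57, and of 4 markers of molting larvae 3 were lower, with a median of -1.33. None of the 4 markers of body wall muscle passed the threshold. Of 5 sperm markers 1 was higher and 1 lower, and of the 3 measured vulval markers none passed. Of 3 yolk protein markers 1 was higher and none lower, and of 3 intestine markers 1 was higher and 1 lower. The ratios were spread more widely on arrays 1 and 2 (SD 0.888 and 0.848) than on array 3 (SD 0.674).

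Transcripts of the MAP kinase phosphatase gene lip-1, the ERK gene mpk-1 and the ligand gene lin-3 were higher in TP10, and that of the Ras GTPase-activating protein gene gap-1 was lower. The receptor gene let-23, the Ras gene let-60 and the transcription factor genes lin-1 and lin-31 did not pass the threshold. Over all genes and features, 43.9% passed in either direction, 22.0% higher and 21.9% lower, so 4 of 8 members is near the background. The median of the 8 means was 0.31, against 0.01 over all genes and features, and 6 of the 8 means lay above 0, against 50.8% of all. No member was as far from 0 as any of the 6 germ line markers.

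**Figure D1:**
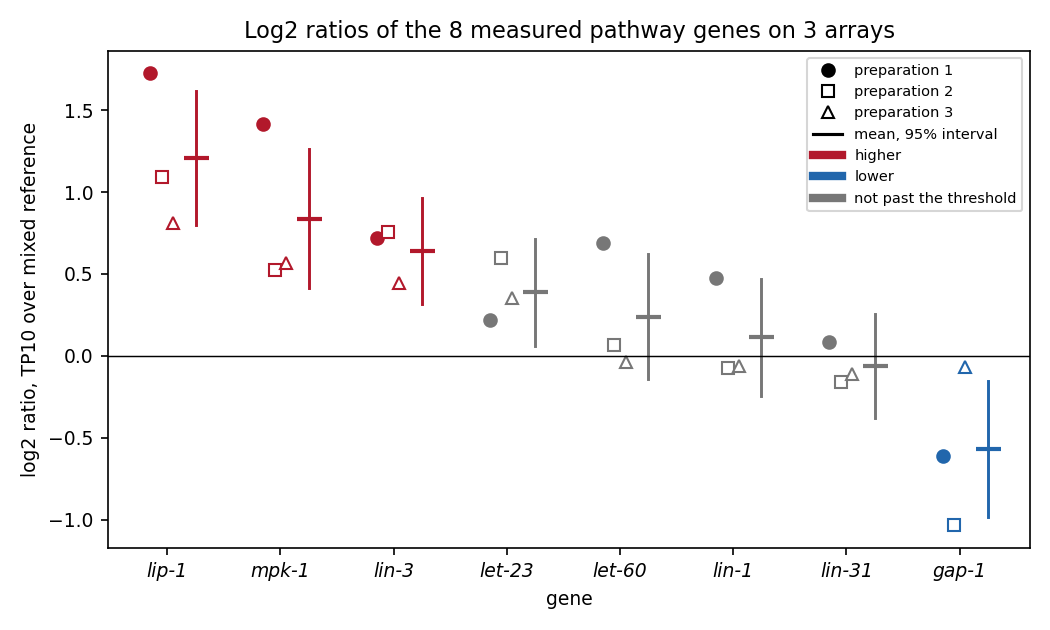
Log2 ratio of TP10 over the mixed reference (vertical axis) for each of the 8 measured pathway genes (horizontal axis, ordered by mean). Symbols are the 3 preparations, and the bar to their right is the limma mean with its 95% interval. lip-1, mpk-1 and lin-3 lie above 0 on all 3 arrays, and gap-1 spans from -1.03 to -0.07.

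The ligand gene lin-3 (F36H1.4, chromosome IV) had log2 ratios of 0.72, 0.76 and 0.45 in preparations 1, 2 and 3. The 3 values lay close together and all above 0. Their mean was 0.64 ± 0.17 (SD, n = 3), a 1.56-fold difference with a 95% interval of 0.32 to 0.96 on the log2 scale (limma, adjusted p = 0.00469). The call held without any 1 preparation, with means of 0.58 to 0.74. lin-3 also kept nearly the same place among all genes and features, between the 81.1 and the 84.97 percentile on the 3 arrays.

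The receptor gene let-23 (ZK1067.1, chromosome II) had log2 ratios of 0.22, 0.60 and 0.35 in preparations 1 to 3. All 3 arrays gave a positive ratio, and the mean of 0.39 ± 0.19 (SD, n = 3) had a 95% interval of 0.06 to 0.71. It stood just outside the threshold (limma, adjusted p = 0.0544). Quantile normalization put it inside (limma, adjusted p = 0.0343), as did scaling the arrays to one spread (limma, adjusted p = 0.0397), array weights (limma, adjusted p = 0.0252) and leaving out preparation 1 (limma, adjusted p = 0.0386). Over all alternatives its adjusted p ran from 0.0252 to 0.332. Ligand and receptor had the same sign on every array, with lin-3 above let-23 by 0.50, 0.16 and 0.09 log2.

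The Ras gene let-60 (ZK792.6, chromosome IV) had log2 ratios of 0.69, 0.07 and -0.04. Preparation 1 stood apart from the other two, which lay on either side of 0. The mean of 0.24 ± 0.39 (SD, n = 3) did not pass, with a 95% interval of -0.14 to 0.62 (limma, adjusted p = 0.296). Without preparation 1 the mean was 0.015.

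The ERK gene mpk-1 (F43C1.2, chromosome III) encodes the last kinase of the cascade, and of the kinases that act below Ras it is the one with a feature here. Its log2 ratios were 1.42, 0.53 and 0.57 in preparations 1, 2 and 3. All were above 0, with preparation 1 well above the others. The mean of 0.84 ± 0.50 (SD, n = 3), a 1.79-fold difference, had a 95% interval of 0.41 to 1.26 (limma, adjusted p = 0.00483). Without preparation 1 the mean was 0.55 and still passed (limma, adjusted p = 0.0183). The SD of mpk-1 lay at the 92.1 percentile of all genes and features. The single feature does not tell the isoforms of mpk-1 apart.

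Of the nuclear targets, lin-1 (C37F5.1, chromosome IV), an ETS gene whose product holds vulval fates back until it is phosphorylated by MPK-1, had log2 ratios of 0.48, -0.07 and -0.06. The mean of 0.11 ± 0.31 (SD, n = 3) had a 95% interval of -0.24 to 0.47 and turned to -0.067 without preparation 1. lin-31 (K10G6.1, chromosome II), the winged-helix gene whose product forms a complex with LIN-1, had ratios of 0.08, -0.16 and -0.11. Its mean of -0.06 ± 0.13 (SD, n = 3) had a 95% interval of -0.38 to 0.25. For both genes preparation 1 was above 0 and the other preparations below, and neither passed (limma, adjusted p = 0.610 and 0.760). Both intervals hold differences in either direction, so the values do not show that these transcripts were equal in TP10 and reference.

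The pathway's inhibitors went opposite ways. lip-1 (C05B10.1, chromosome IV) encodes a dual-specificity phosphatase that inactivates MPK-1 and acts both in vulval precursor cells and in the germ line. Its log2 ratios were 1.72, 1.09 and 0.81 in preparations 1 to 3, the highest of the 8 genes on each array. The mean of 1.21 ± 0.47 (SD, n = 3), a 2.31-fold difference, had a 95% interval of 0.80 to 1.62 (limma, adjusted p = 0.000452). Without any 1 preparation the mean was 0.95 to 1.41 and the call held. lip-1 lay at the 97.2, 91.4 and 91.3 percentile of all genes and features on the 3 arrays.

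gap-1 (T24C12.2), which encodes a GTPase-activating protein that switches LET-60 off, had log2 ratios of -0.61, -1.03 and -0.07. All were below 0, but preparation 3 was close to it. The mean of -0.57 ± 0.48 (SD, n = 3), or 1.49-fold lower, had a 95% interval of -0.99 to -0.15 and passed narrowly (limma, adjusted p = 0.0306). The call ended without preparation 1 (mean -0.55, limma, adjusted p = 0.0905) and without preparation 2 (mean -0.34, limma, adjusted p = 0.255). Without preparation 3 the mean was -0.82 (limma, adjusted p = 0.00458). Over all alternatives the adjusted p of gap-1 ran from 0.00458 to 0.299. gap-1 is the only measured member on the X chromosome, where 28.2% of 2256 single genes were lower and 10.2% higher, against 22.99% lower and 24.3% higher of 12784 autosomal genes. The part of the chromosome in its ratio was not tested.

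Ordered by mean log2 ratio, the genes ran lip-1, mpk-1, lin-3, let-23, let-60, lin-1, lin-31 and gap-1. Differences taken within an array do not depend on how the array was centred. lip-1 exceeded mpk-1 by 0.31, 0.57 and 0.24 log2 on the 3 arrays, a mean of 0.37 ± 0.17 (SD, n = 3). mpk-1 and lin-3, with a mean difference of 0.20 ± 0.47, changed order between arrays, and so did let-23 and let-60, at 0.15 ± 0.54. let-60 exceeded lin-1 by 0.13 ± 0.09 on average, with 1 sign on every array. lin-1 exceeded lin-31 on every array too, but the mean of 0.18 ± 0.19 was smaller than its SD. The step from lin-31 to gap-1 was the widest, at 0.51 ± 0.49, and changed sign on array 3. In all, 4 of the 7 neighbouring pairs and 23 of all 28 pairs kept their order on the 3 arrays. Between the ends, lip-1 exceeded gap-1 by 2.34, 2.13 and 0.88 log2. These are descriptions, since a sign test on 3 arrays cannot pass the threshold.

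The members were not spread alike on the arrays. Preparation 1 gave the highest of the 3 ratios for 5 of the 8 genes, preparation 2 for lin-3 and let-23, and preparation 3 for gap-1. The median of the 8 was 0.58, 0.30 and 0.16 on arrays 1, 2 and 3, and the SD between members was 0.742, 0.667 and 0.353. Thus 7 members lay above 0 on array 1, 5 on array 2 and 4 on array 3. Over all genes and features the median was 0 on each array by centring, and the SD was 0.89, 0.85 and 0.67. The share of all genes that were highest on each array was not counted. Genes with small spread between preparations were lin-31, lin-3 and let-23, at the 20.1, 31.8 and 39.0 percentile of SD. gap-1, mpk-1 and lip-1 had large spread, at the 90.9, 92.1 and 89.8 percentile.

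**Figure D2:**
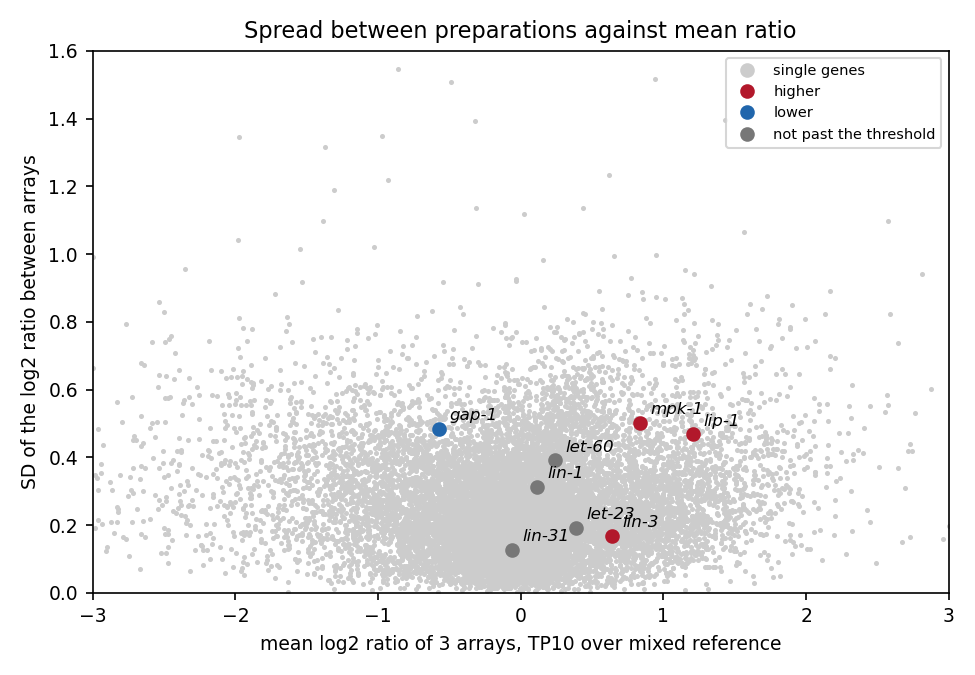
SD of the log2 ratio between the 3 arrays (vertical axis) against the mean log2 ratio (horizontal axis) for 15046 single genes in grey and the 8 members in colour. A further 66 genes lie outside the axes. lip-1, mpk-1 and gap-1 combine a called difference with an SD above 0.46, while lin-3 passes with an SD of 0.17.

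The genes nearest to the extremes of the pathway were sought among 9242 genes with a symbol, by Euclidean distance over the 3 centred log2 ratios. Nearest to lip-1 were atp-1 at 0.0604, gex-3 at 0.0772 and efr-3 at 0.0811. Their means of 1.19, 1.20 and 1.19 log2 differ little from that of lip-1. Nearest to gap-1 were srg-53 at 0.0357, mam-4 at 0.144 and gtnt-51 at 0.146, with means of -0.59, -0.58 and -0.53. With 3 values per gene this likeness is a description only.

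Outside the 10 listed genes, 96 genes that act with, beside or against the pathway were put in 9 lists, and 87 of them were measured. Of these 30 were higher and 21 lower, or 58.6% called, against the 43.9% of the whole table. Without each preparation in turn, 42 of these 51 calls held in every fit. The lists differed in which way their genes went.

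**Figure D3:**
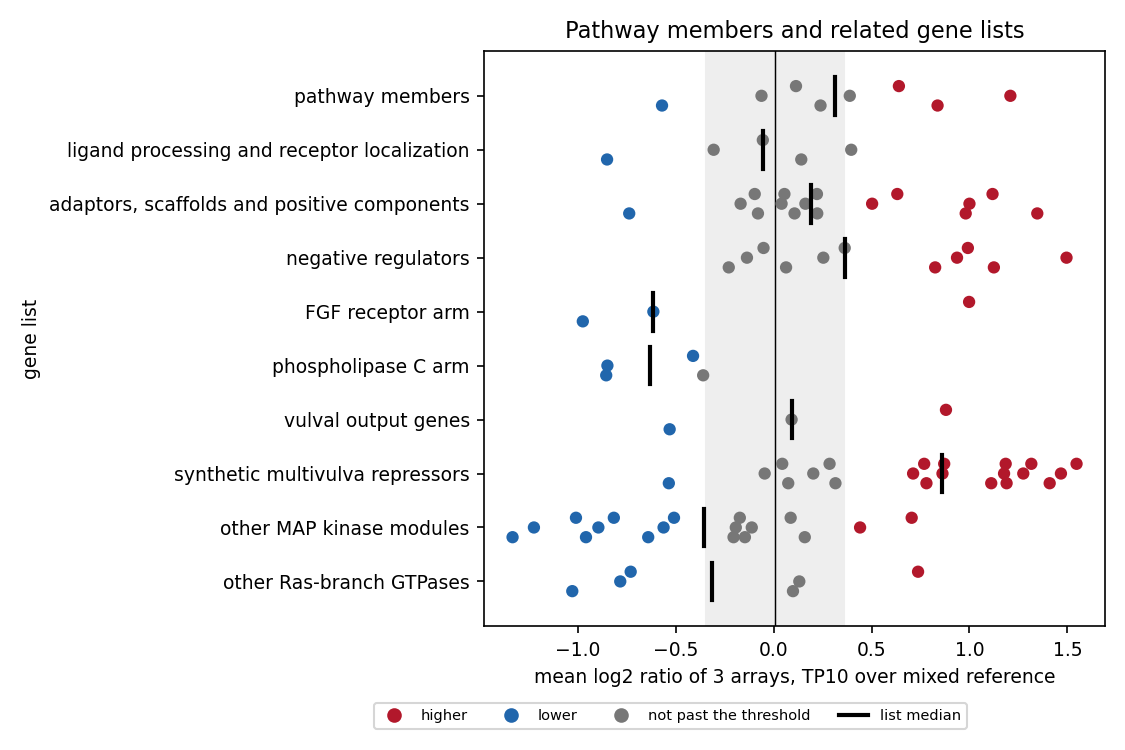
Mean log2 ratio over 3 arrays (horizontal axis) of every measured gene, 1 point each, in the pathway and in 9 related lists (vertical axis). Colour marks the limma call, black ticks are list medians, and the grey band runs from the 25 to the 75 percentile of all genes and features, from -0.35 to 0.36. The synthetic multivulva repressors have a median of 0.86, and the other MAP kinase modules one of -0.36.

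Of 5 genes for ligand processing and receptor localization, a list without lin-3 and let-23 themselves, 1 was lower and none higher. Their median was -0.06, and the 20.0% called compares with 43.9% of all genes and features. lin-2, which encodes a scaffold that holds LET-23 at the basolateral membrane, stood at -0.85 ± 0.09 (SD, n = 3; limma, adjusted p = 0.000700). Its partners in that complex, lin-7 and lin-10, stood at -0.06 ± 0.18 and 0.14 ± 0.25, and neither passed. The rhomboid gene rom-1, whose product promotes LIN-3 signalling, stood at 0.40 ± 0.33 and did not pass (limma, adjusted p = 0.0737). It passed under quantile normalization, array weights and without preparation 1 (limma, adjusted p = 0.0428, 0.0216 and 0.0180), and without preparation 2 its mean was 0.25 (limma, adjusted p = 0.421). eps-8 stood at -0.31 ± 0.21, also not past the threshold. In the branch of LET-23 signalling that runs through phospholipase C and inositol trisphosphate, 3 of 4 genes were lower, with a median of -0.63. The whole table had 21.9% lower. The list mixes the phospholipase and the receptor with enzymes that act on inositol trisphosphate, so its median gives no direction for signalling. The inositol trisphosphate kinase gene lfe-2 stood at -0.86 ± 0.17, the phosphatase gene ipp-5 at -0.85 ± 0.13 and the receptor gene itr-1 at -0.41 ± 0.17 (limma, adjusted p = 0.000837, 0.000783 and 0.0406). The call of itr-1 ended whichever preparation was left out (limma, adjusted p = 0.0639 to 0.233). plc-3, the phospholipase C gene, stood at -0.36 ± 0.10 and did not pass (limma, adjusted p = 0.0602), though it did under quantile normalization and with arrays scaled to one spread (limma, adjusted p = 0.0369 and 0.0454).

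Among 16 measured adaptors, scaffolds and other positive components, the median was 0.19, and 6 passed as higher against 1 as lower. The 43.8% called is the background share, 43.9%, and 37.5% were higher against 22.0% in the whole table. The SHP2-type phosphatase gene ptp-2 stood at 1.35 ± 0.43, the Mediator subunit gene sur-2 at 1.12 ± 0.22 and par-5, which encodes a 14-3-3 protein, at 1.00 ± 0.68 (SD, n = 3; limma, adjusted p = 0.000188, 0.000198 and 0.00450). par-5 had ratios of 1.78, 0.62 and 0.60 in preparations 1, 2 and 3, so preparation 1 stood apart as it did for mpk-1, and without it the mean was 0.61 (limma, adjusted p = 0.0113). The other 3 higher genes and the lower one were picked afterwards, with values known. The zinc finger gene eor-1, the scaffold gene cnk-1 and the phosphatase 2A catalytic subunit gene let-92 stood at 0.98 ± 0.32, 0.63 ± 0.28 and 0.50 ± 0.18, and the leucine-rich repeat scaffold gene soc-2 at -0.74 ± 0.09. The call of cnk-1 ended without preparation 2 (limma, adjusted p = 0.0897), and that of let-92 without preparation 1 or 2 (limma, adjusted p = 0.0596 and 0.0709). The adaptor gene sem-5 and the exchange factor gene sos-1, which link LET-23 to LET-60, stood at 0.04 ± 0.24 and 0.22 ± 0.10 and did not pass. Both were chosen afterwards, for their place next to let-60.

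Of 11 measured negative regulators other than lip-1 and gap-1, the median was 0.36, 5 were higher and none was lower. The 45.5% called is near the background of 43.9%, and by direction the whole table has 22.0% higher and 21.9% lower. fbf-2, a Pumilio-family gene whose product represses mpk-1 and lip-1 messenger RNA in the germ line, stood at 1.50 ± 0.22, but it has a near-identical copy, fbf-1, from which the feature may not tell it apart. lst-1 stood at 1.12 ± 0.26 and the Ack-related kinase gene ark-1 at 0.99 ± 0.21 (SD, n = 3; limma, adjusted p = 3.68e-05, 0.000226 and 0.000400). The remaining higher genes, agef-1 at 0.94 ± 0.21 and the Pumilio-family gene puf-8 at 0.82 ± 0.03, were chosen after their values were seen. Of the genes for GTPase-activating proteins that are related to gap-1, gap-2, also chosen afterwards, stood at -0.14 ± 0.02 and did not pass. The 6 germ line markers, between 1.50 and 2.73, were higher in the same RNA, and their part in these ratios was not tested.

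The 3 measured genes of the FGF receptor arm, which shares the Ras module, all passed. Of all genes and features 43.9% passed, 22.0% as higher and 21.9% as lower. With 3 measured genes each, this list and that of vulval signalling below are too small to set against that share. The receptor gene egl-15 stood at -0.98 ± 0.35, the ligand gene let-756 at -0.62 ± 0.23 and clr-1, whose receptor phosphatase restrains EGL-15, at 1.00 ± 0.38 (SD, n = 3; limma, adjusted p = 0.000835, 0.00713 and 0.000873). So let-756 and egl-15 were lower, while lin-3 was higher. The EGF receptor gene let-23, at 0.39, narrowly missed the threshold (limma, adjusted p = 0.0544). egl-17, also listed for the FGF receptor arm, was not measured. Of the 3 measured genes that vulval signalling is known to turn on, the Notch ligand gene apx-1 was higher at 0.88 ± 0.81, the Hox gene lin-39 lower at -0.53 ± 0.45, and the Notch ligand gene dsl-1 stood at 0.09 ± 0.29. The ratio of apx-1 was 1.81 in preparation 1 against 0.46 and 0.37, and its call ended without that preparation (mean 0.41, limma, adjusted p = 0.0564). The call of lin-39 ended without preparation 2 (mean -0.29, limma, adjusted p = 0.336) or preparation 3 (limma, adjusted p = 0.0553).

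The synthetic multivulva genes, chromatin and transcription regulators that are known to keep lin-3 silent outside its normal cells, were the list with the highest median, 0.86. Of 21 measured, 14 were higher and 1 lower, against 22.0% and 21.9% in the whole table. The zinc finger genes lin-36 and lin-13 stood at 1.55 ± 0.33 and 1.41 ± 0.31 and the Mi-2 chromatin remodeller gene let-418 at 1.47 ± 0.13 (SD, n = 3; limma, adjusted p = 5.04e-05, 7.63e-05 and 3.16e-05). The lower gene, chosen after its value was seen, was lin-56 at -0.54 ± 0.26, a call that ended without preparation 3 (limma, adjusted p = 0.116). In these arrays lin-3 itself was higher, as given above. The germ line markers were higher beside these genes too, and their part was not tested.

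Of 18 genes of other MAP kinase modules, the median was -0.36, with 9 lower and 2 higher, against 21.9% and 22.0% in the whole table. The p38 gene pmk-2 stood at -1.33 ± 0.31, the JNK gene jnk-1 at -1.23 ± 0.30 and the JNK-like gene kgb-2 at -1.01 ± 0.24 (SD, n = 3; limma, adjusted p = 0.000104, 0.000166 and 0.000402). Of the other p38 genes, chosen afterwards, pmk-3 was lower too but pmk-1 did not pass. The 2 higher genes, named with their values known, were the kinase kinase gene mek-1 at 0.70 ± 0.19 and the TAK1-type gene mom-4 at 0.44 ± 0.29. mpk-2, an ERK-like gene also chosen afterwards, was lower at -0.51 ± 0.08, whereas mpk-1 was higher. The calls of mom-4 and mpk-2 ended without preparation 2 (limma, adjusted p = 0.353 and 0.0914), and that of mom-4 also without preparation 3 (limma, adjusted p = 0.0524). Of 6 measured Ras-branch GTPase genes other than let-60, 3 were lower and 1 higher, against the same background. ras-2 stood at -1.03 ± 0.10, ras-1 at -0.78 ± 0.26 and rap-1 at 0.74 ± 0.48 (limma, adjusted p = 0.000228, 0.00204 and 0.00865). rap-1 had ratios of 1.29, 0.52 and 0.40, and without preparation 1 its mean was 0.46 (limma, adjusted p = 0.0380). rap-2, chosen after its value was seen, stood at -0.73 ± 0.37, and its call ended without preparation 3 (limma, adjusted p = 0.0511). The neuronal markers, 4 of 5 lower with values down to -2.19, moved in the same direction as the lower kinase genes, and their part was not tested.

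The related genes were also counted by chromosome. Of the 19 on the X chromosome 1 was higher and 5 were lower (median -0.08), while 28 of 66 on autosomes were higher and 16 lower (median 0.18). A further 2 related genes had no chromosome given and were left out. On the X chromosome 5.26% of the related genes were thus higher and 26.3% lower, near the 10.2% and 28.2% of all X-linked single genes. On autosomes 42.4% were higher and 24.2% lower, against 24.3% and 22.99% of all autosomal single genes. Across all X-linked single genes the median was -0.12, and across autosomal ones 0.01. The difference between X-linked and autosomal genes of the lists was not tested.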

How the data were processed

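The authors deposited 1 table of log2 ratios for 20000 features on 3 two-colour arrays. The log2 scale, and that each array was already centred near 0 (medians -0.00868, 0.0172 and 0.0101), were read from the values. How background, weak spots and dye effects were treated is not given in the sources used here, and spot intensities were not used, so which features were above background is unknown. Of the features, 15655 had 1 gene in the platform annotation, 198 had several and 4147 were not listed. Current symbols and chromosomes came from RefSeq (WBcel235), which matched 15569 by gene identifier.

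A value on all 3 arrays was required (19748 features), features of 1 gene were averaged (429 genes had more than 1), and each array was centred on its median. For the test of means against 0, limma 3.58.1 was run under R 4.3.3 (lmFit, eBayes, intercept only, two-sided, Benjamini-Hochberg over 19300). Arrays carry no read depth, and their number limits the precision. The reference has no replicates and no dye swap is labelled, so its spread and dye bias are not in the error. The fit was also run on simulated data with independent normal noise and no array or dye effects. That run checks the calculation only and cannot show whether the calls on these arrays are right. Alternatives were other centring and scaling, missing values, separate features, robust variance, array weights, an unmoderated test and leaving out each preparation.

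The members, lists and tests were chosen with earlier results of these data known. Named were all members, the 3 largest called changes of each list with 1 sign on all arrays, every measured gene of lists of 5 or fewer, the markers, and the 3 nearest genes to the highest and the lowest member. Other names are marked as chosen afterwards.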

Additional observations from a re-analysis of the deposited data

How the results depend on the processing

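Each ratio already sets TP10 against the reference on the same array. No further pairing was possible because there is 1 group of samples. The number of members called, 4, was 4 or 5 under every other centring, scaling, filter and variance setting except the unmoderated one-sample test, and 3 to 4 without 1 preparation. Without preparation 1, let-23 passed and gap-1 did not. The unmoderated test, on 2 residual degrees of freedom, called 0 of 8 members (2 had an unadjusted p under 0.05, and limma called 4), 0 of 87 related genes (46 unadjusted, limma 51) and 1 of 19300 genes and features (6829 unadjusted, limma 8476). Without 1 preparation 6754 to 7796 genes and features and 45 to 49 related genes were called. Of the pathway and list genes given with values, lin-1, lin-7, dsl-1 and sem-5 changed sign, none past the threshold in any setting: without preparation 1, lin-1 went from 0.11 to -0.067 and lin-7 from -0.056 to 0.043. Without preparation 3, dsl-1 went from 0.091 to -0.059, and sem-5 went from 0.040 to -0.041, or to -0.018 without preparation 2. With each preparation left out in turn, lin-1 ranged from -0.067 to 0.21, lin-7 from -0.13 to 0.043, dsl-1 from -0.059 to 0.23 and sem-5 from -0.041 to 0.18. The cause was not tested. No neighbouring pair of members moved by more than its SD under scaling or quantile normalization. Without preparation 1, mpk-1 minus lin-3 went from 0.20 to -0.054, and without preparation 2, let-23 minus let-60 went from 0.15 to -0.041. The deposited values were already centred, so a change shared by most genes would be missed in every setting.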
